A study of Mus musculus with 4 samples.

Results

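The replication-dependent histone genes of mouse chromosome 13 were examined in single-cell ATAC-seq of long-term hematopoietic stem cells (LT-HSCs), an assay in which the transposase Tn5 cuts open chromatin and the cuts are counted per cell. All 54 protein-coding genes with symbols starting Hist1h in GENCODE M21 were taken, and the peaks that overlapped the 1000 bp on either side of their starts were collected. This gave 27 peaks among 93513 peaks in all and among 13629 promoter peaks, defined in the same way over 21938 protein-coding genes. Peaks stood near 45 of the 54 histone genes. Old mice, 22 to 28 months of age, gave 3 of the samples, namely CLCA3A1high LT-HSCs, CLCA3A1low LT-HSCs and unsplit LT-HSCs, and young mice of 3 to 4 months gave one of LT-HSCs. The old cells were split with an antibody to the surface protein CLCA3A1. All mice were C57BL/6JRj with no genetic change named in the labels, and LT-HSCs were LSK CD34neg CD135neg cells. Each of the 4 groups had 1 sample, in which 2500 cells from each of 4 mice were pooled to 10000 sorted cells, so values of single mice cannot be separated.

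The table analyzed here is named in the labels of both CLCA3A1-sorted samples. Its barcodes ended in 1 of 2 suffixes, which the labels do not tie to either sample. The cells are therefore called barcode set 1 (818 cells, 13050952 counts) and barcode set 2 (636 cells, 9820094 counts), with no group assigned. A ratio between the sets describes 2 libraries and carries no p-value, and its direction says nothing of CLCA3A1. Set 1 had a median of 13358.5 counts per cell and set 2 of 12755. Promoter peaks were found at 8 of 10 LT-HSC marker genes, with a summed level of 302 CPM (counts per 1e6 counts of a set) in set 1 and 268 CPM in set 2, and Ly6a and Mecom had none. Markers of T cells had no promoter peak at any of 3 genes. For B cells 2 of 3 genes had a peak, at a summed 0.46 and 2.24 CPM, and for NK cells 1 of 2, at 0.54 and 5.09 CPM. Erythroid and myeloid markers had peaks at 2 of 3 and 2 of 5 genes, mostly through Klf1 (42.8 and 35.1 CPM) and Elane (41.8 and 37.2 CPM), and Hbb-bt, Ly6g, S100a8 and Mpo had none. The part of these other lineages in the differences between the sets was not tested.

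Histones H2A, H2B, H3 and H4 form the core around which DNA is wrapped, and linker histone H1 binds where the DNA enters and leaves that core. The replication-dependent genes for these proteins have no introns, are transcribed together in S phase and give messages that end in a stem-loop instead of a poly(A) tail. LT-HSCs are mostly quiescent, so most of them are not in S phase at a given time. H2A and H2B genes are commonly arranged head to head and share the stretch between their starts, and the promoters carry short elements that differ by histone type.

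Promoter sequences from RefSeq (GRCm38) were matched through gene synonyms for 51 of the 54 genes, which gave 52 windows from 250 bases before to 50 after a start. Hist1h2bc, Hist1h3a and Hist1h3f had no entry. The stretches below show one example each of the shared H2A and H2B promoter, the H1, the H3 and the H4 promoter, all ending 1 base before the RefSeq start. Capitals mark 5 words in either orientation. TATAAA is the TATA box, where the TATA-binding protein docks. CCAAT is the box that the factor NF-Y binds. ATTTGCAT is the octamer, which Oct-1 recognizes at H2B genes. AAACACA is the H1 box, and GGTCCG is the core of site II, the cell cycle element of H4 promoters. The first runs from the base after one start to the base before the other, and the others give the 120 bases before the start, 5′ to 3′ on the gene's strand.
Hist1h2ah to Hist1h2bk, chr13:22035644-22035820, plus strand: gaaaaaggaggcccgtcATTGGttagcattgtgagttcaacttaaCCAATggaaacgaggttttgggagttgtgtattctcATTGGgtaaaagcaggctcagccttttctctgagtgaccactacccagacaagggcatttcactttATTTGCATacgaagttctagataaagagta
Hist1h1c, H1, chr13:23738687-23738806, plus strand: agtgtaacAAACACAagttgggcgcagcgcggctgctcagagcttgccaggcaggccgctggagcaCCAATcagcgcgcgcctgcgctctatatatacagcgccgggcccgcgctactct
Hist1h3i, H3, chr13:21783398-21783517, minus strand: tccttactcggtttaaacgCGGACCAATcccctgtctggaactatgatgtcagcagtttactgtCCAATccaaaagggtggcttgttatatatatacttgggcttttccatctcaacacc
Hist1h4d, H4, chr13:23581448-23581567, plus strand: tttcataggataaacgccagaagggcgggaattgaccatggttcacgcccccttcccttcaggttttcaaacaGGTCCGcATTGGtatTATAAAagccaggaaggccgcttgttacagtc
In the shared H2A and H2B stretch, 177 bases long, CCAAT stands 3 times, and the octamer stands 30 bases before the start of Hist1h2bk. Hist1h1c, the gene of linker histone H1.2, has the H1 box 112 bases and CCAAT 54 bases before its start. At Hist1h4d the site II core, a reversed CCAAT and the TATA box lie 47, 40 and 32 bases before the start. The first capitals of Hist1h3i are a reversed GGTCCG that overlaps CCAAT.

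The share of windows with a word varied with the type, and H2A and H2B were much alike. CCAAT was found in 6 of 6 H1, 13 of 13 H2A, 15 of 15 H2B and 7 of 7 H3 windows but in 3 of 11 H4 windows, against 37.4% of all 32851 promoter windows of the RefSeq table. The site II core GGTCCG showed the reverse, with 10 of 11 H4 windows, 1 of 15 H2B, 1 of 7 H3 and none of the 6 H1 and 13 H2A windows, against 8.25% of all promoters. Hist1h4a was the H4 gene without it. The H1 box AAACACA was in 5 of 6 H1 windows, with Hist1h1a as the exception, in 2 of 13 H2A and 2 of 15 H2B windows, in no H3 or H4 window and in 7.18% of all promoters. The octamer ATTTGCAT occurred in 6 of 15 H2B and 5 of 13 H2A windows, none of the other types and 1.74% of all promoters. Hist1h2be gave more than 1 of the H2B windows. Its octamer was in the window whose start lay 35154 bp from the GENCODE start, not in the one at its peak. The TATA box TATAAA was in 31 of 52 windows, 59.6%, against 13.6% of all promoters, and varied from 7 of 15 H2B windows to 8 of 11 H4 windows. Of the E2F words, TTTCCCGC was in the Hist1h4a window alone (1.07% of all promoters) and TTTGGCGC in no histone window (0.51%). Windows of head-to-head genes overlap and share words, a match is not evidence of binding, and a missing word says only that these letters are absent from the window.

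**Figure D1:**
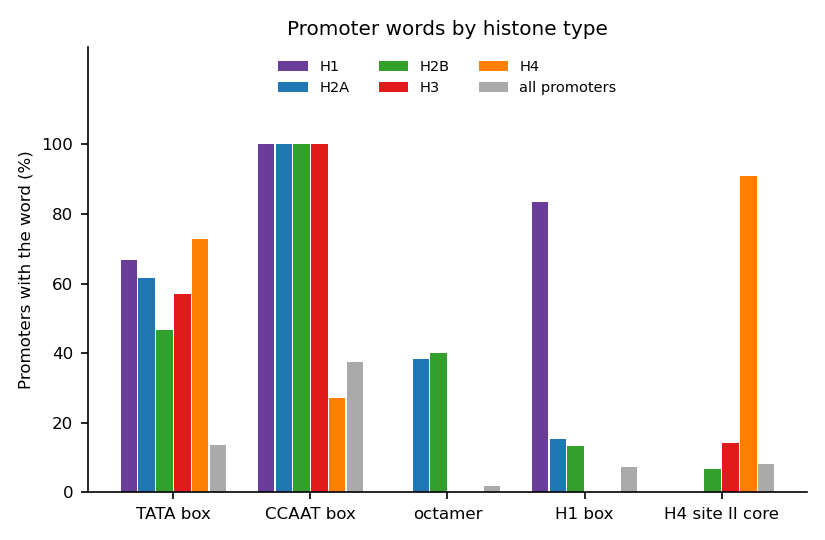
Share of RefSeq promoter windows (percent, vertical axis) that hold each of 5 words on either strand, by histone type and for all 32851 promoters. CCAAT reaches 100% in H1, H2A, H2B and H3 but 27.3% in H4, and the site II core reaches 90.9% in H4.

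The 54 genes lay in 3 blocks and 1 separate pair on chromosome 13 (GRCm38). The left block, chr13:21715763-21837530, held 18 genes, of which 13 had a peak, and 9 peaks. The middle block, chr13:22035164-22043676, held 5 genes, all with a peak, in 2 peaks. The right block, chr13:23531050-23764406, held 29 genes, 27 with a peak, and 16 peaks. Hist1h2ba and Hist1h2aa, histone genes of the male germ line, formed the last pair at chr13:23933773-23934851 and had no peak. By type, 4 of 6 H1, 10 of 13 H2A, 12 of 15 H2B, 9 of 9 H3 and 10 of 11 H4 genes had a peak. The share over the family was 83.3%, against 67.5% of all protein-coding genes and 90.2% of ribosomal protein genes. Of the 49 other genes between the first and last Hist1h start, 20.4% had a peak. Most of these 49 had symbols starting Vmn1r, and no Vmn1r gene had a peak. Among the rest, only Slc17a1, Slc17a2 and Slc17a3 had none.

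Only 14 of the 27 peaks stood near a single gene, and the other 13 could not be given to one gene. Of these, 9 peaks were near 2 genes, 3 near 3 genes and 1 near 5 genes, Hist1h2ae, Hist1h2bg, Hist1h2bf, Hist1h2ad and Hist1h3d, in a peak of 6179 bp. No H2A gene had all of its peaks to itself, 1 H2B gene (Hist1h2bm) did, and 8 of 11 H4 genes did. Among genes with a RefSeq window, head-to-head H2A and H2B genes numbered 10 pairs, 163 to 280 bases apart between RefSeq starts with a median of 203.5 bases. For 7 of these pairs the whole stretch between the starts lay inside 1 peak, and CCAAT was present in all 10. Hist1h2ac and Hist1h2bc also lie head to head in 1 peak and were not counted, since Hist1h2bc had no window. Hist1h2af was near 2 peaks. The peak at Hist1h4m began 455 bp after its start, and that gene was the only one of the 45 whose start lay outside its peak.

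Most genes without a peak lay in duplicated sequence. A read of 32 bases cannot be placed by its own letters when the same 32-base word occurs elsewhere in the genome, and the share of such words was counted within 1000 bp of each start. The median was 24.8% for the 45 genes with a peak, 95.7% for the 9 genes without one and 1.52% for all protein-coding genes. Ribosomal protein genes had a median of 7.005% and replication-dependent histone genes on other chromosomes 22.6%. Among the 9 genes without a peak, Hist1h2bq, Hist1h2ao, Hist1h4n, Hist1h2ap and Hist1h2br had 95.7% to 100%, and all 5 lie in a stretch at the end of the left block that is present as 2 inverted copies. The promoters of Hist1h4m and Hist1h4n, 1 in each copy, show this in the 120 bases before their starts, with the site II core in capitals.
Hist1h4m, H4, chr13:21811626-21811745, plus strand: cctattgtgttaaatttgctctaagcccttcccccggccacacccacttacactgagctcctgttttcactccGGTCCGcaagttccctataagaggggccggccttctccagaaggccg
Hist1h4n, H4, chr13:21832198-21832317, minus strand: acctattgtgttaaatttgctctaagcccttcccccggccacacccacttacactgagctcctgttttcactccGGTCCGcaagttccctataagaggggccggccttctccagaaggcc
These share an unbroken run of 119 bases, offset by 1 base, and the 120 bases before Hist1h2bq and Hist1h2br are identical. The 120 bases before Hist1h2ao occur 2 times on the chromosome but share a run of only 20 bases with those before the RefSeq start of Hist1h2ap. Whether these promoters were open could therefore not be read from the peaks, and a missing peak there does not show closed chromatin. The peak credited to Hist1h4m, in which 84.5% of words were repeated, is uncertain for the same reason.

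Repeats did not mark the other 4 genes without a peak. Hist1h1t, the H1 gene of spermatocytes, had 0% repeated words, Hist1h2aa and Hist1h2ba 10.7% each, and Hist1h1d 0.81%. The annotated start of Hist1h1d, the gene of H1.3, lay 1770 bp before its RefSeq start. A peak of 33.02 CPM in set 1 and 34.6 CPM in set 2, at chr13:23554748-23556719, lay 1486 bp from the GENCODE start and around the RefSeq start. It was open, meaning at least 1 count in the peak, in 21.0% and 20.0% of cells. By the RefSeq start, 5 of the 6 H1 genes had a peak, and Hist1h1t, Hist1h2aa and Hist1h2ba, the genes expressed in testis, stayed without.

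**Figure D2:**
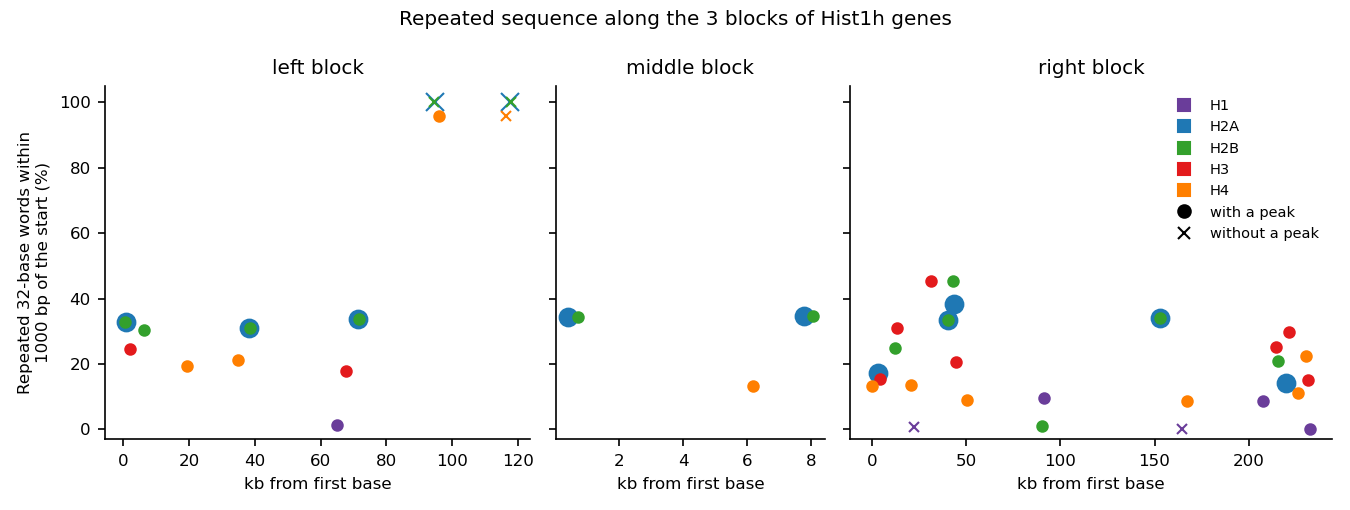
Share of 32-base words within 1000 bp of each start that occur more than once in the genome (percent, vertical axis) against position in kb within each block, coloured by type, with H2A symbols drawn larger because H2B symbols overlie them. Crosses mark genes without a peak: 5 of the 7 shown sit at 95.7% or above at the end of the left block, and the 2 H1 crosses of the right block sit below 1%; the testis pair is not drawn.

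The 27 peaks summed to 1026 CPM in set 1 (95% Poisson interval, 1008 to 1043) and to 1160.5 CPM in set 2 (1139 to 1182). This was 0.103% and 0.116% of all counts. Intervals here cover counting error only and are too narrow, because 88.7% of values above 0 were even, as 1 fragment usually gives 2 counts. Peaks differed widely in level, from 1.92 to 109 CPM in set 1 and from 3.26 to 108 CPM in set 2. Their order was much the same in both sets (Spearman's rho 0.97 over 27 peaks), and level followed peak width (rho 0.85), so levels were also taken per kb. Per kb of peak they ranged from 5.31 to 31.7 CPM in set 1 and from 9.03 to 32.003 CPM in set 2, with medians of 17.9 and 19.7.

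The linker histone genes had 4 peaks of unequal level. The highest peak of all was shared by Hist1h4a, Hist1h3a and Hist1h1a, at 109 CPM (104 to 115) in set 1 and 108 CPM (102 to 115) in set 2, and was open in 48.9% and 46.5% of cells. Hist1h1c had 81.1 and 73.8 CPM and the highest level per kb in set 1, 31.7 CPM. Hist1h1e, the gene of H1.4, shared its peak with one start of Hist1h2be at 67.2 and 71.0 CPM. Hist1h1b, the gene of H1.5, was the lowest of the H1 peaks at 30.04 CPM (27.1 to 33.2) and 33.7 CPM (30.2 to 37.5), open in 19.8% and 19.2% of cells, below the family median in each set. The sets overlapped within counting error at each of these 4 peaks.

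Among the core histone genes, the highest H2A and H2B peak over all cells was the same, that of Hist1h2ac and Hist1h2bc, at 77.5 CPM (72.8 to 82.5) in set 1 and 87.2 CPM (81.4 to 93.2) in set 2. It was open in 39.5% and 40.4% of cells. The lowest H2A peak was one of the 2 near Hist1h2af, at 4.90 CPM (3.78 to 6.26) and 6.72 CPM (5.20 to 8.55), and the lowest H2B peak was Hist1h2bm, at 26.1 CPM (23.4 to 29.0) and 32.4 CPM (28.9 to 36.1). Apart from the peak shared with Hist1h4a and Hist1h1a, H3 peaks reached 70.3 and 90.7 CPM in the peak of 5 genes, which was above the Hist1h2ac and Hist1h2bc peak in set 2. The lowest H3 peak over all cells was Hist1h3i at 12.3 CPM (10.5 to 14.4) and 21.4 CPM (18.6 to 24.5), although in set 2 the peak of Hist1h2ab and Hist1h3b was lower, at 20.1 CPM (17.4 to 23.1). H4 genes with a peak of their own ran from Hist1h4m, 1.92 CPM (1.24 to 2.83) and 3.26 CPM (2.23 to 4.60), to Hist1h4h, 65.7 CPM (61.4 to 70.3) and 72.2 CPM (67.0 to 77.7). Hist1h4h was also the highest per kb in set 2, at 32.003 CPM. Per kb of peak, the H4 genes, which encode the same protein, still ran from 5.31 CPM at Hist1h4m and 6.04 CPM at Hist1h4k through 13.3 CPM at Hist1h4b to 29.1 CPM at Hist1h4h in set 1. In the same order, 84.5%, 45.6%, 22.4% and 11.8% of the 32-base words of these peaks were repeated. The other H4 genes with a peak of their own did not keep this order. In set 1, Hist1h4j had 9.61 CPM per kb with 15.6% repeated words, and Hist1h4f 17.9 CPM with 18.1%. Hist1h4d had 18.7 CPM with 12.3%, and Hist1h4c 26.4 CPM with 11.1%. Over the 27 peaks, CPM per kb had a Spearman's rho of -0.40 with the share of repeated words. The part of reads that cannot be placed in these levels was not tested.

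Between the sets, most histone peaks had the lower level in set 1. With 1 CPM added to each level, the log2 ratio (set 1 over set 2) had a median of -0.22 over the 27 peaks, with a range of -0.75 to 0.13, and the ratio of their summed counts was -0.18 (95% interval, -0.21 to -0.14). Of the 27 peaks, 23 lay below 0, where 48.0% of the 13308 promoter peaks with at least 20 counts did, and the median of these promoter peaks was 0.01. For 13 of the 27 the counting interval lay wholly below 0 and for none wholly above, against 17.5% and 19.8% of promoter peaks. With counts halved to allow for 2 counts per fragment, an alternative chosen after the data were seen, 5 of the 27 intervals remained below 0, against 10.0% of promoter peaks. The 4 peaks above 0 were Hist1h1c (0.13), Hist1h4d (0.10), Hist1h3e (0.09) and the shared peak of Hist1h4a, Hist1h3a and Hist1h1a (0.01), and all 4 intervals included 0.

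**Figure D3:**
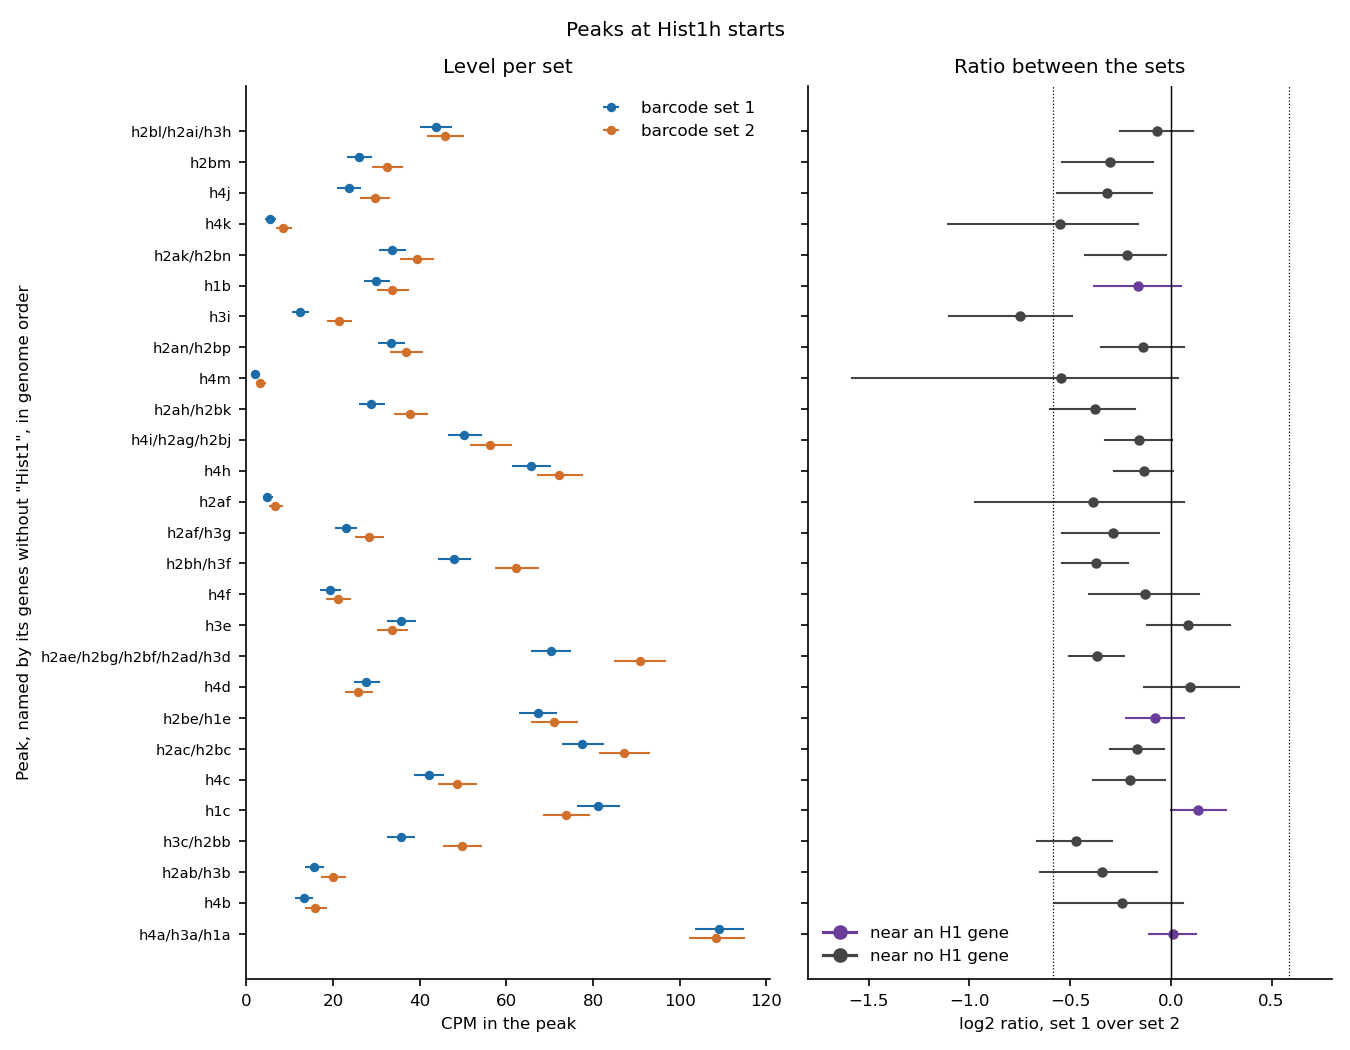
Left, CPM (horizontal axis) of each of the 27 peaks in barcode set 1 and set 2 with exact 95% Poisson intervals; right, log2 ratio of set 1 over set 2 with its exact 95% binomial interval, where dotted lines mark 1.5-fold. Most points lie left of 0, Hist1h3i alone lies past 1.5-fold at -0.75, and the intervals of the 4 peaks near H1 genes all reach 0.

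Past 1.5-fold there was 1 peak, Hist1h3i, lower in set 1 at -0.75 on the log2 scale (interval of the ratio, -1.10 to -0.49). Its 161 counts in set 1 and 210 in set 2 came from 71 cells (8.68%; exact 95% Clopper-Pearson interval, 6.84% to 10.8%) and 85 cells (13.4%; 10.8% to 16.3%). Across promoter peaks, 9.36% passed 1.5-fold in either direction and 3.89% were lower in set 1, so 1 of 27 is near the background. The count depends on the 1 CPM added: on plain CPM, set 2 was 1.73 times set 1 at Hist1h3i, 1.70 times at Hist1h4m and 1.55 times at Hist1h4k. In cells thinned to an equal depth the log2 ratio of Hist1h3i was -0.32, no longer past 1.5-fold.

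By type, the 4 peaks near an H1 gene had 287 CPM in each set and a ratio of summed counts of 0.00 (-0.07 to 0.07), with 2 of 4 below 0, and Hist1h1b at -0.16 (-0.38 to 0.05). The 23 peaks near no H1 gene had 738 CPM in set 1 and 874 CPM in set 2, a ratio of -0.24 (-0.29 to -0.20), with 21 of 23 below 0. All 10 peaks with an H2A gene and all 11 with an H2B gene lay below 0, as did 7 of 9 with an H3 and 8 of 10 with an H4 gene; a shared peak counts under each of its types. The 4 peaks near H2A and H2B genes alone had a ratio of summed counts of -0.21 (-0.30 to -0.13). It was -0.26 for the 2 peaks shared by H2A, H2B and H3 genes and -0.16 for the 1 shared by H2A, H2B and H4 genes. The 8 peaks near H4 genes alone had -0.18 (-0.26 to -0.09). By position the ratio was -0.26 in the left block, -0.25 in the middle block and -0.15 in the right block, which holds 3 of the 4 H1 peaks. This split by H1 was made after the ratios were seen and was not tested.

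Some sequence and technical measures moved with these ratios. Over the 27 peaks the log2 ratio had a Spearman's rho of -0.58 with the share of repeated words and of 0.50 with the mean CPM, and the points share the same 2 libraries. Peaks near an H1 gene had 1.36% to 11.8% repeated words and the other peaks 11.1% to 84.5%. Among the remaining promoter peaks, the median log2 ratio was 0.01 for the 841 with 10% to 25% repeated words around their gene starts. It was -0.04 for the 173 with 25% to 50%. For the histone peaks of the same ranges the median was -0.32 (11 peaks) and -0.19 (10 peaks). At 1% to 10% the median was 0.01 over 5061 other peaks and -0.08 over 5 histone peaks, 3 of them below 0. The 1 histone peak above 50% had -0.55, against a median of -0.05 for 85 others. Windows at histone starts had a median GC content of 46.9%, against 53.9% at other promoter peaks. Other promoter peaks of 45% to 50% GC had a median ratio of 0.01 (2615 peaks), and the 17 histone peaks in that range -0.22. By depth of the cells, the summed level of set 1 was 976, 992 and 1053 CPM in its shallow, middle and deep cells (3 classes of like size). That of set 2 was 1058, 1136 and 1194 CPM. Set 1 was lower in each class, but the counting intervals of the shallow cells overlapped (930 to 1023 and 1001 to 1117 CPM). The classes were cut within each set, so depth was not matched between the sets. The part of depth in the ratio was not tested. These ranges and classes were chosen after the data were seen.

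Related genes were read beside the family. Replication-dependent histone genes on other chromosomes (Hist2h, Hist3h and Hist4h) had 9 peaks near 12 of 13 genes and a ratio of summed counts of -0.09 (-0.16 to -0.03), with 7 of 9 below 0. Hist4h4, a lone H4 gene, had 41.8 and 48.8 CPM (-0.22), and the peak shared by Hist2h2ab, Hist2h2ac and Hist2h2be 79.5 and 78.3 CPM (0.02). Histone variant genes, which are expressed outside S phase, had 5 of 12 tested peaks below 0 and a ratio of 0.05 (0.00 to 0.10). Values of single variant genes were summed over their peaks, and H3f3b and H2afy had 2 peaks each. The highest single peak of the variant list had a log2 ratio of 1.89, which these sums do not show. Of the variant genes so summed, the linker histone genes H1f0 (22.3 and 15.7 CPM, 0.48) and H1fx (28.4 and 20.4 CPM, 0.46) were higher in set 1, with intervals above 0. So was the H2A variant gene H2afv at 0.19 (0.07 to 0.31), while H2afy was lower at -0.25 (-0.43 to -0.09). Factors of histone gene transcription and message processing had 11 of 23 peaks below 0 and a ratio of 0.00. Within that list, Npat, the coactivator of histone genes, had 84.1 and 85.2 CPM (-0.02), and Slbp, which binds the stem-loop, had 68.4 and 80.9 CPM (-0.24, interval -0.38 to -0.10). Other processing factors of the list went both ways. Cpsf2 at 0.31 (0.15 to 0.48) and Eri1 at 0.24 (0.06 to 0.43) had intervals above 0. Lsm10 (0.12), Lsm11 (0.06), Cpsf3 (-0.12) and Cstf2 (-0.01) had intervals that included 0. Other S phase genes had 17 of 29 peaks below 0 and a ratio of -0.07 (-0.10 to -0.03), with the DNA polymerase subunit Pola2 at -0.60 and the chromatin assembly subunit Chaf1b at 0.31. Ribosomal protein genes had 39 of 92 below 0 and a ratio of 0.03, and the 10 peaks of other genes inside the cluster had 5 below 0 and a ratio of -0.01 (-0.10 to 0.07). The Hist1h ratio lay furthest from 0 of these 7 lists, and differences between lists were not tested.

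**Figure D4:**
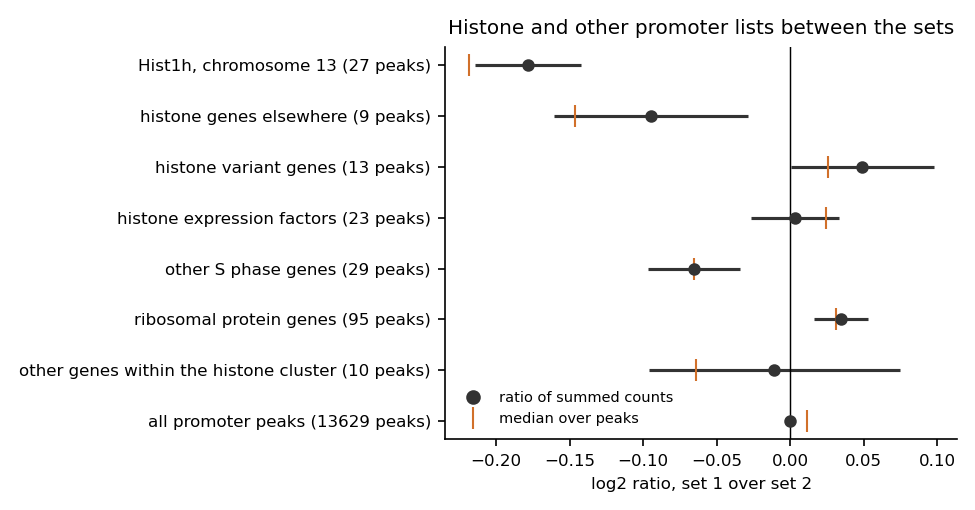
Log2 ratio of set 1 over set 2 (horizontal axis) for each list of promoter peaks; circles give the ratio of summed counts with its exact 95% binomial interval and orange ticks the median over peaks. The Hist1h list lies at -0.18, histone genes elsewhere at -0.09 and all promoter peaks at 0.00.

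In single cells most histone peaks had no count in a given cell, and this held for promoter peaks at large. The median histone peak was open in 21.0% of the cells of set 1 and 21.1% of set 2, with ranges of 2.08% to 48.9% and 3.46% to 46.5%. Over all promoter peaks the medians were 18.1% and 17.0%. Ribosomal protein genes had 24.0% and 23.1%, and other S phase genes 25.4% and 25.8%. For measures per cell, 749 cells of set 1 and 560 of set 2 were thinned to 4899 counts each, and 69 and 76 shallower cells were left out. The median histone peak was then open in 11.3% and 12.5% of cells. A median of 3 of 27 peaks (quartiles, 2 to 5) was open per cell of set 1 and of 4 (2 to 5) in set 2, with at most 14 and 13. No peak was open in 31 cells of set 1 (4.14%; exact interval, 2.83% to 5.82%) and in 17 cells of set 2 (3.04%; 1.78% to 4.82%). Summed counts over the family had a median of 4 per cell (3 to 7) in set 1 and 5 (3 to 7) in set 2, with a variance 2.00 and 2.08 times the mean.

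**Figure D5:**
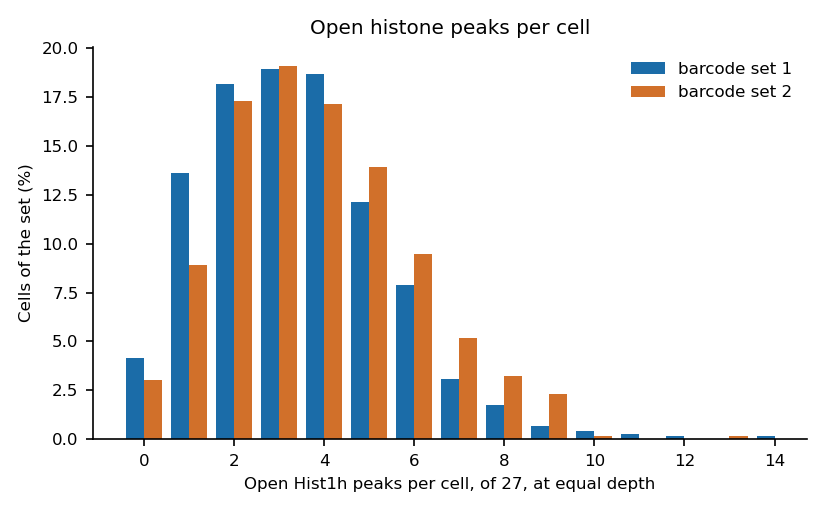
Share of cells (percent, vertical axis) of each barcode set by the number of the 27 histone peaks with at least 1 count, after thinning each cell to 4899 counts. Both sets centre on 3 to 4 open peaks, and 4.14% and 3.04% of cells have none.

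Covariation of the peaks from cell to cell was weak at this depth. Over the 351 pairs of peaks, the median Spearman's rho across thinned cells was 0.014 in both sets, against 0.000 and -0.001 over pairs of promoter peaks open in a like range of cells and 0.005 in both over such pairs no farther apart than the histone peaks. Pairs that shared a histone type had medians of 0.023 and 0.017 and pairs that shared none 0.009 and 0.010. The 28 pairs of H4 peaks had -0.007 and -0.008. By distance, the 16 pairs under 10 kb apart had 0.035 and 0.024, and the 176 pairs over 1 Mb apart 0.017 and 0.012. Correlations of this size in sparse counts are no finding, and the pairs share their cells. At 9798 counts per cell the medians were 0.0225 and 0.0273, and without thinning 0.115 and 0.133.

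The variance of the number of open histone peaks per cell was 1.46 and 1.43 times the sum of the variances of the single peaks, where 1 would mean independent peaks. The same ratio was 1.64 and 1.59 for ribosomal protein genes, which number 95 peaks, and 1.13 and 1.23 for the 29 peaks of other S phase genes. For a given correlation between peaks, the ratio grows with their number, so these values are not on an equal footing. Summed histone counts per cell had a rho of 0.053 and 0.050 with those of the other S phase genes, 0.020 and -0.040 with those of ribosomal protein genes, 0.067 and 0.052 with the factors of histone expression, 0.038 and 0.071 with histone variant genes, 0.025 and 0.096 with histone genes elsewhere, and 0.11 in both sets between the left and right blocks. With the depth of the cell before thinning, rho was 0.056 and 0.12, and the part of depth in the covariation was not tested. The promoter peaks most like the summed histone counts in both sets were those of Ccdc124 (0.10 and 0.12), Oxt (0.12 and 0.09), Nfkbie (0.09 and 0.09), Vps25 (0.10 and 0.09) and Fzd3 (0.09 and 0.13), the highest of 12334 peaks compared.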

How the data were processed

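The authors sorted LT-HSCs, made single-cell ATAC libraries and deposited tables of counts of cut sites per peak and cell barcode. Per the submitters' processing notes, Cell Ranger ATAC 1.2.0 and mm10 were used, and no normalization of the deposited counts is stated. The 4 groups had 1 sample each. A second table, whose rows carry no peak names, was not used here. Coordinates are printed 1-based, the deposited starts being taken as 0-based.

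CPM is the count over the set's total, times 1e6. Intervals are exact Poisson, Clopper-Pearson or conditional binomial intervals at 95%. Log2 ratios used a pseudocount of 1 CPM and peaks with at least 20 counts; intervals of ratios used no pseudocount. All 27 histone peaks passed. Cells were thinned without replacement to 4899 counts, the 10th percentile. No cell was removed otherwise, and no doublet caller was run; 57 cells had over 3 times the median counts. The sets shared 0 barcodes. Repeated words were 32 bases long and counted over the whole genome on both strands. The code for ratios, thinning and correlations was tested on simulated data. Python 3.11.15, numpy 2.4.6, scipy 1.17.1, pandas 2.3.3 and numba 0.67.0 were used.

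Full values were given for the highest and lowest peak of each type, peaks past 1.5-fold and testis genes, and for the 5 promoter peaks most like the summed counts in the lower of both sets' rho. Candidates were further limited to peaks open in at least 20 thinned cells, a limit chosen after the data were seen. Other genes named in a list were chosen after their values were seen. The members and lists were chosen with earlier results of these data known. Symplk, written for the factor list, matched no gene in GENCODE M21, and 25 genes of that list were used.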

Additional observations from a re-analysis of the deposited data

How the results depend on the processing

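The median log2 ratio stayed below 0 under every alternative run, while single peaks changed sides of 0. Ratios by type, block and list were not recomputed. The family had 27 peaks with windows of 500 bp or with transcript starts and 28 with 2000 bp. Peaks below 0 numbered 19 of 26 tested in thinned cells and 22 to 24 of 27 under the other alternatives. Counted once per cell, the summed levels were 913 and 1022 CPM and the median summed counts per cell 3 and 4. Without the 57 deepest cells the median log2 ratio was -0.26. Peaks past 1.5-fold numbered 4 once per cell, 3 without the deepest cells and 3 after thinning. Hist1h4k and Hist1h2af passed in all of these, and after thinning Hist1h3i did not. The shares of all promoter peaks below 0 or past 1.5-fold were not taken under these alternatives. These counts therefore have no background and are no result about the histone peaks. With counts halved, 5 intervals lay below 0. Thinning gave open shares of 11.3% and 12.5%. The median rho of pairs was 0.115 and 0.133 without thinning and 0.0225 and 0.0273 at 9798 counts per cell. Over the whole member peaks, TATAAA was in 81.5%, AAACACA in 40.7%, GGTCCG in 51.9% and TTTCCCGC in 18.5%; peaks are longer than promoter windows and hold several genes. No paired analysis was possible because every group had a single sample. Each set is 1 library, so differences between libraries, mice and groups cannot be told apart.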
